A study of Homo sapiens with 4 samples.

Results

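The expression of 10 genes of bone morphogenetic protein (BMP) signalling was examined in MCF10A, an immortal line of human breast epithelium that forms no tumours, with and without overexpression of the heat shock factor HSF1. The genes were ID1, ID2, ID3, ID4, BMP2, BMP4, BMP7, BMPR1A, SMAD6 and GREM1, chosen by name among the 63856 genes of the deposited count table, and they were found there by Ensembl identifier. RNA-seq was available for 2 libraries of wild type (WT) cells and 2 of cells transduced with a lentivirus that carries the HSF1 coding sequence in the pLVX vector (HSF1-pLVX) and selected with puromycin. Per the labels, MCF10A cells grew in medium with horse serum, EGF, insulin, hydrocortisone and cholera toxin, the last of which the study's methods do not list. No empty-vector library was analysed here, so an effect of HSF1 cannot be told apart from one of the vector, its selection or separate culture. Neither the labels nor the methods say whether clones were picked after selection, and the labels do not say that libraries of a group came from separate cultures, so p-values measure only the spread between these libraries.

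BMPs are secreted ligands of the TGF-beta superfamily. They bring together type I and type II receptor kinases, which phosphorylate the signal transducers SMAD1, SMAD5 and SMAD9. With SMAD4 these enter the nucleus, where the ID genes are among the best known direct targets. ID proteins have a helix-loop-helix domain but no DNA-binding region, so they pair with E proteins and other basic helix-loop-helix factors and keep them off DNA. The pathway is held back by secreted antagonists such as Noggin and Gremlin, by the pseudoreceptor BAMBI and by the inhibitory SMADs, several of which are themselves induced by BMP. In the mammary gland, ID4 is known from basal cells and ID2 from alveolar differentiation.

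The libraries held between 18688109 and 24184285 counts. Levels are given as CPM, which are the usual depth-scaled read counts, here with library sizes corrected by TMM factors. The HSF1 level was 200.4 and 189 CPM in WT replicates 1 and 2 and 982 and 999 CPM in HSF1-pLVX replicates 1 and 2 (log2 fold change 2.35, adjusted p = 1.14e-10), as the labels state. Of 10 mammary epithelial markers, all were tested, and HSF1-pLVX cells had 3 called higher and 7 called lower. Their summed level was 21830 to 22240 CPM in WT and 10030 to 10280 CPM in HSF1-pLVX cells, and all 10 were detected in both variants. Of 10 fibroblast markers 4 passed the filter on low counts, 1 (DCN) higher and 2 lower. The summed level fell from between 208.8 and 243.4 CPM to between 55.4 and 68.1 CPM, mostly through FAP, while COL1A2, COL3A1 and LUM had at most 1 count in any library. Of 4 endothelial markers 1 (KDR) was tested and was higher, with sums of 1.94 to 3.04 CPM in WT and 13.1 to 14.3 CPM in HSF1-pLVX cells. Of 4 leukocyte markers 1 (ITGAM) was tested and was higher, with sums of at most 2.19 CPM, and PTPRC was at 0 in every library. DCN and ITGAM passed the filter only through the HSF1-pLVX libraries, so their calls could hardly go the other way.

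The counts of both variants went into a quasi-likelihood test in edgeR, and Benjamini-Hochberg adjustment covered all 15830 genes left by the filter on low counts. Calls were made at a threshold of 0.05. An exact permutation of 2 libraries against 2 cannot go below p = 0.33, so this test borrows the spread of other genes. Of the 10 genes, ID3, BMP7 and GREM1 did not pass the filter. ID4 and BMP4 passed it only through the WT libraries. A gene that passes through only 1 group can hardly be called in the other direction. ID1 was called higher, ID2, ID4, BMP4 and SMAD6 were called lower, and BMP2 and BMPR1A were not called. Over all tested genes 65.9% were called, 32.7% higher and 33.2% lower, and 2358 were over 2-fold higher and 2218 over 2-fold lower, so a call on its own is common in this comparison. The 5 calls were all over 2-fold.

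**Figure D1:**
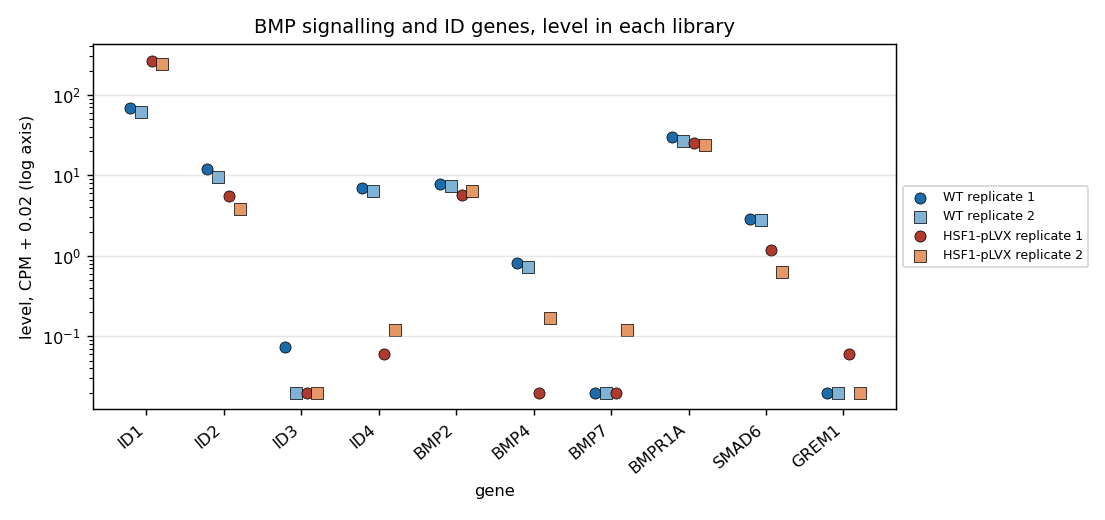
Level of each of the 10 genes in the 4 libraries, as CPM plus 0.02 on a log axis, with circles for replicate 1 and squares for replicate 2 (blue WT, red and orange HSF1-pLVX). ID1 was between 61.9 and 69.6 CPM in WT and between 240.2 and 267 CPM in HSF1-pLVX cells, while ID4 went from above 6 CPM to at most 0.101 CPM, and the points at the bottom are libraries with 0 counts.

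The ID genes changed in opposite directions. ID1 (ENSG00000125968.8, chromosome 20 of hg38, 31605283 to 31606515), a common readout of BMP signalling, was at 69.6 and 61.9 CPM in WT replicates 1 and 2 and at 267 and 240.2 CPM in HSF1-pLVX replicates 1 and 2. Both HSF1-pLVX libraries lay above both WT libraries, while for 83.1% of all tested genes the groups did not overlap in either direction. The means were 65.7 ± 5.43 and 253 ± 18.6 CPM (SD, n = 2 each), and ID1 rose 3.86-fold (log2 fold change 1.95, standard error (SE) 0.0988, adjusted p = 6.33e-10). The ratio was nearly the same in each replicate number, at 1.94 and 1.96 on the log2 scale. In these bulk libraries a change in the number of cells that express a gene and a change in RNA per cell cannot be told apart.

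ID4 (ENSG00000172201.11, chromosome 6, 19837386 to 19840684) was nearly lost. WT replicates 1 and 2 held 129 and 117 counts (6.87 and 6.30 CPM), and HSF1-pLVX replicates 1 and 2 held 1 and 2 counts (0.0398 and 0.101 CPM). Summed over each group, the 246 WT counts against 3 gave a WT level 98.7 times the HSF1-pLVX level, with a 95% interval from 33.4 to 482 (exact Clopper-Pearson, counting error only). The fit gave -6.50 on the log2 scale (SE 0.396, adjusted p = 3.89e-09). It lay between -7.16 and -5.94 with each library left out in turn.

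ID2 (ENSG00000115738.9, chromosome 2, 8678845 to 8684453) was at 11.8 and 9.63 CPM in WT and at 5.46 and 3.78 CPM in HSF1-pLVX replicates 1 and 2. The groups did not overlap, as for 83.1% of all tested genes, and ID2 fell 2.30-fold (log2 fold change -1.20, SE 0.187, adjusted p = 5.57e-05). Its exons share 38 bases with the antisense gene ID2-AS1, which had at most 3 counts in any library. Per kilobase of counted gene length, ID1 was the most abundant of ID1, ID2 and ID4 in every library. It made up 87.2 and 87.7% of their summed level in WT and 98.9 and 99.1% in HSF1-pLVX cells. That summed level rose from 64.7 and 57.3 to 219 and 197 CPM per kilobase, although ID2 and ID4 fell.

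ID3 had 1 count in WT replicate 1 and 0 in the other libraries at its locus on chromosome 1 (ENSG00000117318.8, 23557918 to 23559794), but this cannot be read as its level. The count table lists a second copy of the gene, with the same length of 1797 bases, on the patch contig KQ458383.1. The copy (ENSG00000283060.1) held 11 and 6 counts in WT and 9 and 15 in HSF1-pLVX replicates 1 and 2. The contig repeats a stretch of chromosome 1 that ends near ID3, and the other genes of that stretch had next to no counts on the chromosome either. Among them, HNRNPR, which encodes a broadly expressed RNA-binding protein, had 1 and 0 counts in WT and 0 and 6 in HSF1-pLVX cells on chromosome 1, while its copy on the contig had 20 and 7 counts in WT and 229 and 15 in HSF1-pLVX cells. The next genes beyond the stretch, MDS2 and EEF1A1P48, had 2 and 0 counts summed over the 4 libraries. Further on, some genes had high counts, as the ribosomal protein gene RPL11 with 9050 to 24650 per library. HNRNPR, MDS2, EEF1A1P48 and RPL11 were named after their values were seen. How the counting treated reads that match in more than 1 place is not stated in the sources used here, and no fold is given for ID3.

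**Figure D2:**
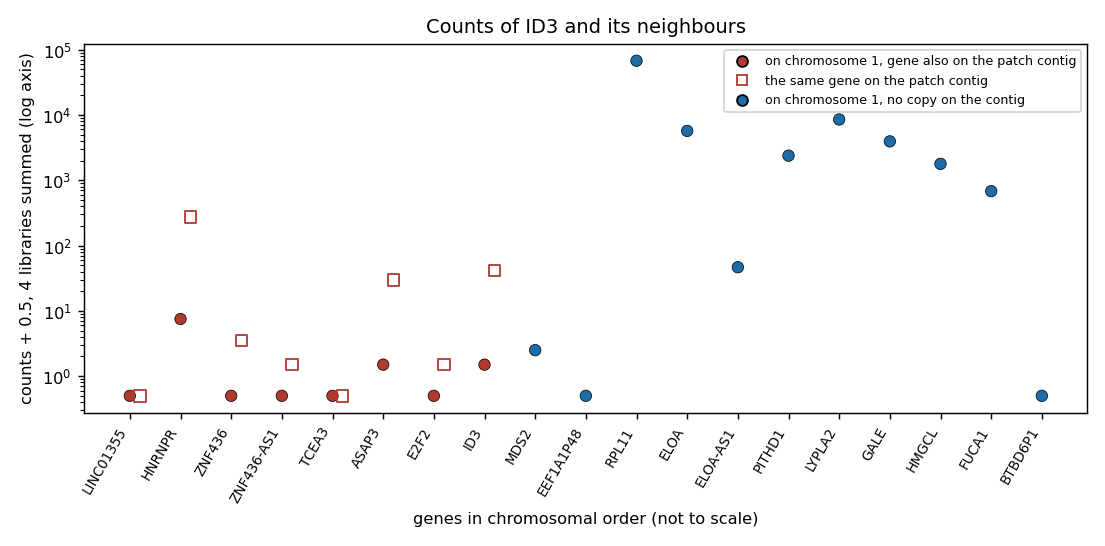
Counts summed over the 4 libraries, plus 0.5 on a log axis, for ID3 and its neighbours on chromosome 1 in chromosomal order (filled circles) and for their copies on the patch contig (open squares). Genes with a copy on the contig (red) had 0 to 7 counts on the chromosome, with ID3 at 1, while RPL11 beyond the repeated stretch had 67519.

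The 250 bases before the RefSeq transcript start are shown for ID1 and ID4, the ID genes with the largest rise and fall of the 3 tested. Short motifs that form part of SMAD and HSF1 binding sites can be looked for in them. Capitals mark matches, on either strand, to GTCT, the core bound by SMAD proteins, and to GAANNTTC, a pair of heat shock element units facing each other. Longer runs of such units were not searched for, so a match to the pair is not a full HSF1 site. TTCNNGAA and the GC-rich SMAD element GGCGCC were searched in the same way. The windows are on the plus strand of GRCh38.p14, chr20:31605039-31605288 for ID1 and chr6:19837120-19837369 for ID4.
ID1: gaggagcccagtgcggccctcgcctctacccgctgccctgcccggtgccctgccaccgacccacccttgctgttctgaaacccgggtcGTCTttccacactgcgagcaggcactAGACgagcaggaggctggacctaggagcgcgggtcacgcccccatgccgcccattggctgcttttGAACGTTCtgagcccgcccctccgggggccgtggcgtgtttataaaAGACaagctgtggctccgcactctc
ID4: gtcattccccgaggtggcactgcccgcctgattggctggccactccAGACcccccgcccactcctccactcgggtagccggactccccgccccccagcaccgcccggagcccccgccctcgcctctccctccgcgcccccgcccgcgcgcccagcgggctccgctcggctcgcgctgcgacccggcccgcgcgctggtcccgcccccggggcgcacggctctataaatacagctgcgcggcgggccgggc

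The ID1 window held GAACGTTC, from 71 to 64 bases before the start, and 3 matches to GTCT that did not overlap it. The ID4 window held 1 match to GTCT and none to the other motifs. The RefSeq promoters covered 8 of the 10 genes, all but BMP2 and BMP7. Over their windows GAANNTTC was found for ID1 alone, TTCNNGAA for 1 of the 3 BMP4 starts, and GGCGCC for BMP4 and GREM1. For ID2 there were 2 matches to GTCT and none to the other motifs. Over all 35093 windows of this length in the table, GAANNTTC was in 5.78%, TTCNNGAA in 6.62%, GGCGCC in 16.4% and GTCT in 77.5%. These matches are descriptions of the letters and no binding was measured here.

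Of the ligands, BMP4 (ENSG00000125378.15, chromosome 14, 53949736 to 53958761), a ligand of BMPR1A with roles in many epithelia, was low in WT cells. It had 15 and 13 counts in WT replicates 1 and 2 (0.799 and 0.700 CPM) and 0 and 3 counts in HSF1-pLVX replicates 1 and 2. Summed over each group the WT level was 11.2 times the HSF1-pLVX level, with a 95% interval from 3.47 to 57.8 for counting error, and the fit gave -3.37 on the log2 scale (SE 0.713, adjusted p = 0.000794). Leaving out HSF1-pLVX replicate 1 gave -2.26. When HSF1-pLVX replicate 2 was left out, no counts remained in the group, so the fitted -6.97 is not a measured fold. BMP2 (ENSG00000125845.6, chromosome 20, 6767664 to 6780280), the closest relative of BMP4, was at 7.88 and 7.32 CPM in WT and at 5.70 and 6.39 CPM in HSF1-pLVX replicates 1 and 2. Both HSF1-pLVX libraries lay below both WT libraries, and the groups failed to overlap, in either direction, for 83.1% of all tested genes. The log2 fold change of -0.33 was not called (adjusted p = 0.0806), with a 95% interval from -0.679 to 0.00986.

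BMP7 (ENSG00000101144.12, chromosome 20, 57168748 to 57266629) had 2 counts in HSF1-pLVX replicate 2 and 0 in the others. A count of 0 allows between 0.119 and 0.161 CPM in a library (3 counts), so BMP7 did not rise above this floor in either variant. Of 14 BMP-type ligands on a wider list of 63 pathway genes, 5 were tested. The one that rose most was BMP6, which had 3 and 1 counts in WT and 83 and 62 counts in HSF1-pLVX replicates 1 and 2. Its summed level was 30.1 times the WT level, with a 95% interval from 11.5 to 112 for counting error (log2 fold change 4.83, SE 0.443, adjusted p = 2.75e-07). BMP8B was also called higher, with 7 to 32 counts per library and a log2 fold change of 1.15 (adjusted p = 0.017). BMP8A was not called. BMP6 and BMP8B passed the filter on low counts only through the HSF1-pLVX libraries, so a call in the other direction was hardly possible for them.

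Among the receptors, BMPR1A (ENSG00000107779.13, chromosome 10, 86756601 to 86932838), the type I receptor that binds BMP2 and BMP4, differed little between the variants. Its level was 29.6 and 26.5 CPM in WT and 25.4 and 23.9 CPM in HSF1-pLVX replicates 1 and 2, and the log2 fold change of -0.19 was not called (adjusted p = 0.113). The 95% interval ran from -0.401 to 0.0268, and without WT replicate 2 the gene was called lower at -0.28 (adjusted p = 0.0422). The type I receptor ACVR1 fell by 0.52 on the log2 scale (adjusted p = 0.000785), and BMPR1B was not called. All 3 type II receptors changed over 2-fold, 2 lower and 1 higher. Among the 15830 tested genes, 2358 were called over 2-fold higher and 2218 over 2-fold lower. BMPR2, the main type II receptor for BMPs, was at 123 and 123 CPM in WT and at 54.3 and 43.3 CPM in HSF1-pLVX replicates 1 and 2 (log2 fold change -1.33, SE 0.103, adjusted p = 4.56e-08). ACVR2A fell by 1.23 on the log2 scale, and its exons share 430 bases with ORC4 on the other strand. ACVR2B rose, with a log2 fold change of 1.20.
Of the 5 co-receptors 4 were tested. RGMA, a membrane-anchored BMP co-receptor, was at 17.6 and 14.9 CPM in WT and at 3.03 and 1.71 CPM in HSF1-pLVX replicates 1 and 2. The groups did not overlap, as for 83.1% of all tested genes (log2 fold change -2.74, SE 0.203, adjusted p = 3.02e-08). ENG, better known from endothelium, fell by 0.92, while RGMB and the RGM receptor NEO1 rose, with log2 fold changes of 0.45 and 0.61.

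**Figure D3:**
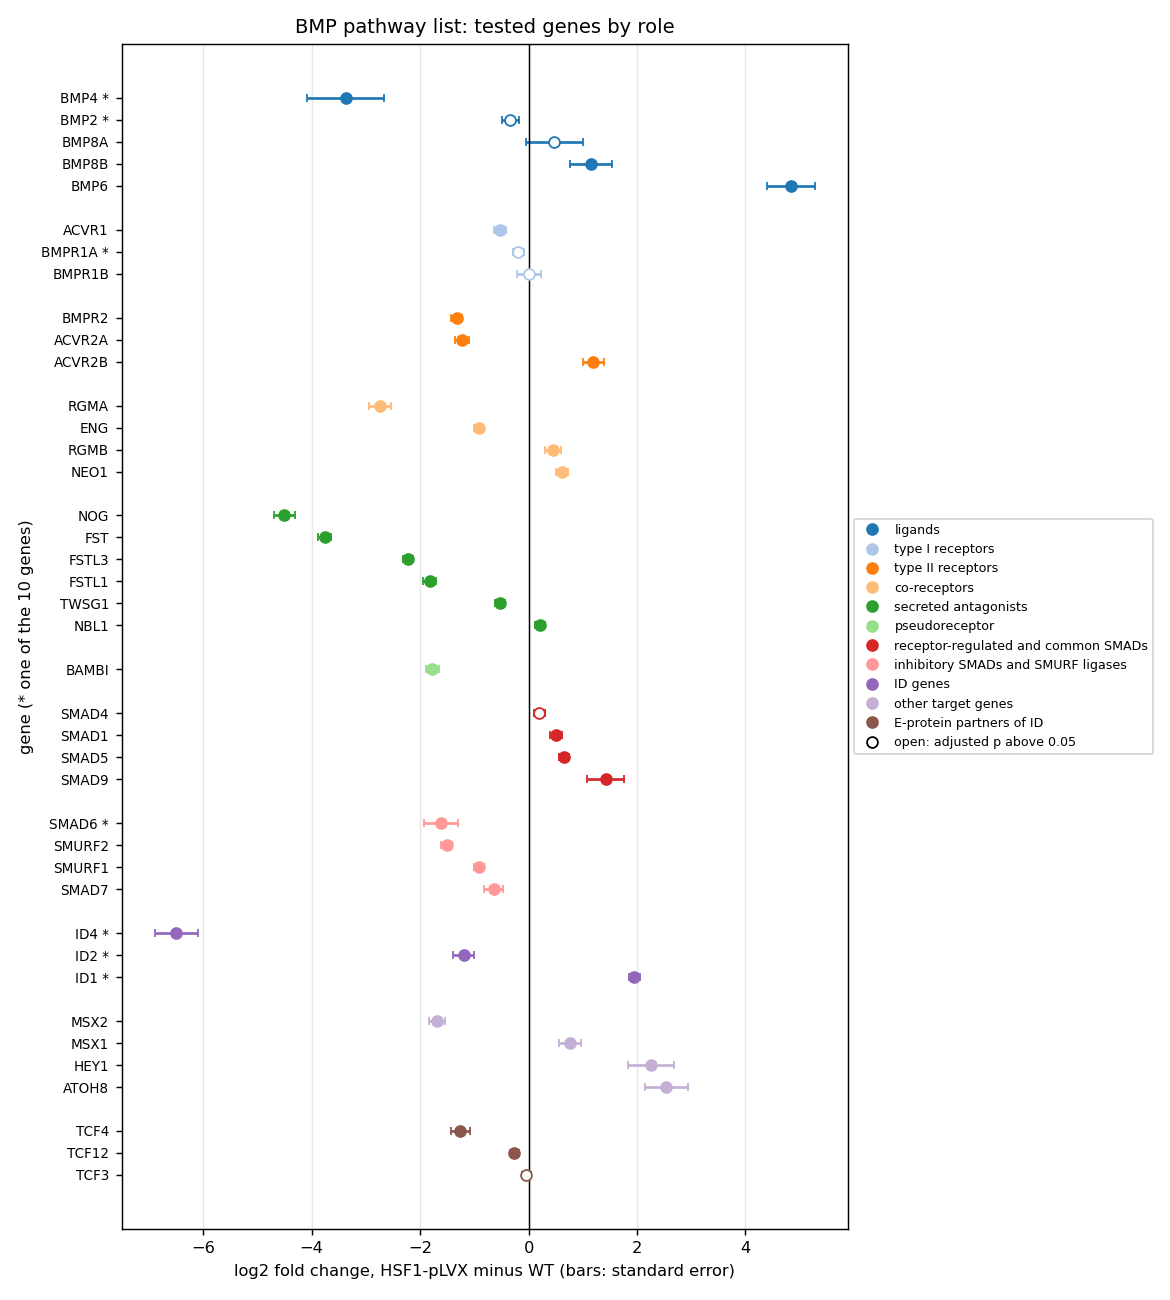
Log2 fold change (HSF1-pLVX minus WT) with its standard error for the 40 tested genes of the pathway list, grouped and coloured by role, with open points for genes not called at an adjusted p of 0.05 and a star for the 10 genes. The 4 inhibitory SMADs and SMURF ligases and 5 of 6 secreted antagonists lie left of 0, while SMAD1, SMAD5 and SMAD9 lie right of it and the ID genes lie on both sides. Of all tested genes, 33.2% were called lower and 32.7% higher.

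SMAD6 (ENSG00000137834.14, chromosome 15, 66702228 to 66782848), an inhibitory SMAD that acts on BMP receptors and is itself induced by BMP, fell. It was at 2.82 and 2.74 CPM in WT and at 1.16 and 0.604 CPM in HSF1-pLVX replicates 1 and 2, from 51 to 53 counts against 12 to 29. The groups did not overlap, as for 83.1% of all tested genes, and the change was 3.07-fold (log2 fold change -1.62, SE 0.316, adjusted p = 0.000417). The other intracellular inhibitors fell as well, in a comparison where 33.2% of all tested genes were called lower and 32.7% higher. SMAD7, which also acts on TGF-beta receptors, had a log2 fold change of -0.64, and the ubiquitin ligases SMURF1 and SMURF2 had -0.92 and -1.51. SMURF2 shares 167 exonic bases with CEP95 on the other strand, whose counts were higher in HSF1-pLVX cells. Of the signal transducers, SMAD1, SMAD5 and SMAD9 were called higher, with log2 fold changes of 0.51, 0.65 and 1.42, and SMAD4 was not called. SMAD9 had 11 to 46 counts per library and was not called with DESeq2's Wald test (adjusted p = 0.0753).

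GREM1 (ENSG00000166923.10, chromosome 15, 32717974 to 32745107), a secreted antagonist of BMP2 and BMP4, had 1 count in HSF1-pLVX replicate 1 and 0 in the other libraries. A contig, KQ031389.1, repeats its region too, and the copy there was at 0 in every library, so, as for ID3, its count cannot be read as its level. Of the 16 secreted antagonists on the list 6 were tested, of which 5 were lower and 1 higher. Of all tested genes, 33.2% were called lower and 32.7% higher. NOG, which encodes Noggin, was at 16.7 and 18.8 CPM in WT and at 0.836 and 0.705 CPM in HSF1-pLVX replicates 1 and 2. The groups were far apart (log2 fold change -4.50, SE 0.195, adjusted p = 1.35e-10). FST, or follistatin, which binds activins and also BMPs, went from 63.3 and 66.3 CPM to 5.34 and 4.13 CPM (log2 fold change -3.76, SE 0.121, adjusted p = 1.15e-11).
The follistatin-like genes FSTL1 and FSTL3 had log2 fold changes of -1.83 and -2.23 (SE 0.115 and 0.0916). TWSG1, a modulator of the antagonist Chordin, fell by 0.53. NBL1, of the DAN family to which Gremlin belongs, was called higher at 0.21 (adjusted p = 0.045), but not with DESeq2's Wald test (adjusted p = 0.243). Per kilobase of counted gene length, the summed level of the 16 antagonists fell from 208 and 208 to 68.3 and 65.1 CPM per kilobase. FSTL1 and FSTL3 made up 70.1 and 69.5% of it in WT and 52.5 and 48.5% in HSF1-pLVX cells. FSTL3 alone was at 104 and 104 CPM per kilobase in WT replicates 1 and 2, and NOG at 8.84 and 9.96. How strongly each protein holds back BMPs was not measured here, so the sum is no measure of BMP antagonism. BAMBI, a pseudoreceptor without a kinase, was at 38.7 and 43.2 CPM in WT and at 13.5 and 10.3 CPM in HSF1-pLVX replicates 1 and 2 (log2 fold change -1.78, SE 0.124, adjusted p = 1.53e-08). The summed fibroblast markers, mostly FAP, moved in the same direction as these antagonists, and so did the summed mammary epithelial markers. Of the fibroblast markers tested, 2 were lower and 1 higher. The higher one, DCN, had 1 and 3 counts in WT and 94 and 87 in HSF1-pLVX replicates 1 and 2. It passed the filter only through the HSF1-pLVX libraries. The part of such markers in the result was not tested.

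**Figure D4:**
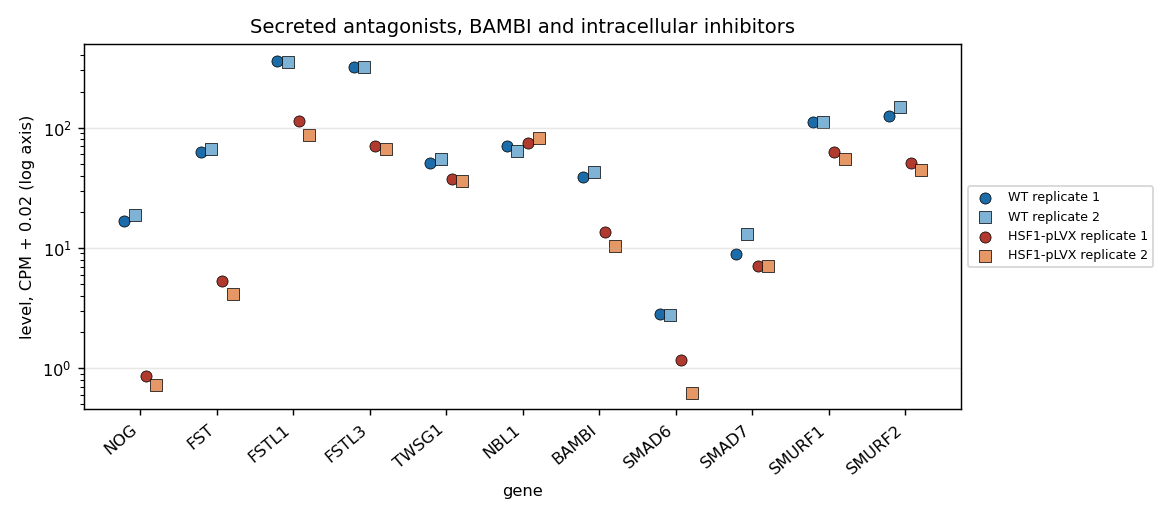
Level in the 4 libraries of 11 genes listed as antagonists or inhibitors of BMP signalling, as CPM plus 0.02 on a log axis. Circles are replicate 1 and squares are replicate 2 (blue WT, red and orange HSF1-pLVX). NOG and FST show the widest gaps, NOG from between 16.7 and 18.8 to between 0.705 and 0.836 CPM, while for NBL1 both HSF1-pLVX libraries lie slightly above WT.

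Target genes other than the ID family also went both ways. Of 5 listed, 4 were tested, 3 higher and 1 lower, beside 32.7 and 33.2% of all tested genes. ATOH8, a basic helix-loop-helix factor, had 11 and 5 counts in WT and 76 and 39 in HSF1-pLVX replicates 1 and 2 (log2 fold change 2.54, SE 0.397, adjusted p = 5.79e-05). HEY1, also a target of Notch, had 6 and 4 counts against 36 and 23 (log2 fold change 2.26, adjusted p = 0.000281). ATOH8 and HEY1 passed the filter on low counts only through the HSF1-pLVX libraries. Their rises in the tally of targets were thus largely set by the filter. The homeobox genes MSX1 and MSX2 changed in opposite directions. MSX1 was at 3.09 and 2.85 CPM in WT and at 4.94 and 5.13 CPM in HSF1-pLVX replicates 1 and 2 (log2 fold change 0.76, adjusted p = 0.00443), and was not called with DESeq2's Wald test (adjusted p = 0.0775). MSX2 was at 12.4 and 12.8 CPM against 3.78 and 4.03 CPM (log2 fold change -1.69, adjusted p = 2.17e-07).

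Of the E proteins that ID proteins bind, TCF4 (E2-2) fell and TCF3 (E2A) was not called. TCF4 was at 8.15 and 9.15 CPM in WT and at 3.90 and 3.27 CPM in HSF1-pLVX replicates 1 and 2 (log2 fold change -1.26, SE 0.179, adjusted p = 2.32e-05). TCF12 (HEB) fell by 0.26 (adjusted p = 0.016). The log2 fold change of TCF3 was -0.04, with a 95% interval from -0.227 to 0.143, at levels from 100.6 to 110.5 CPM over the 4 libraries.
In all, 40 of the 63 listed genes were tested, 13 were called higher and 21 lower, or 32.5 and 52.5% beside 32.7 and 33.2% of all tested genes. The median log2 fold change was -0.43, beside 0.0193 over all tested genes. Some calls in each direction, such as BMP6 higher and BMP4 lower, were of genes that passed the filter on low counts through only 1 group. With DESeq2's Wald test 8 of the 13 kept the call. NBL1, BMP8B, MSX1, RGMB and SMAD9 lost it, at adjusted p-values between 0.0753 and 0.243. The list was written with earlier results of these data known, and it holds the 10 genes. Genes of small groups that did not meet the rule for named genes, among them SMAD7, ATOH8 and TCF12, were named after their values were seen.

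Compared per kilobase of counted gene length, ID1 stood far above the other 6 tested genes in both variants, at 53.3 ± 4.40 CPM per kilobase (SD, n = 2) in WT and 205.5 ± 15.1 (SD, n = 2) in HSF1-pLVX cells. In WT cells ID2, ID4, BMPR1A and BMP2 followed at 4.87, 2.81, 2.46 and 2.11, of which ID4 and BMPR1A differed by less than the sum of their SDs. SMAD6 and BMP4 were lower at 0.325 and 0.243. In HSF1-pLVX cells BMPR1A, ID2 and BMP2 came next at 2.16, 2.09 and 1.68. The libraries of ID2 overlapped with those of both neighbours in this order. SMAD6, ID4 and BMP4 followed at 0.103, 0.0300 and 0.0245, of which ID4 and BMP4 had 3 counts each over both libraries and differed by less than the sum of their SDs. ID3 and GREM1, whose counts are not levels, and BMP7 were left out of this order. The order depends on the counted length, which was 2344 bases for ID4 and 11412 for BMPR1A. Without division by length, the WT mean was 28.1 CPM for BMPR1A and 6.58 CPM for ID4, while ID1 remained the highest in both variants.

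The genes whose profile over the 4 libraries was most like that of ID4 were CTXN1, TCEAL8 and SHROOM4, at Euclidean distances of 0.123, 0.133 and 0.145 between centred log2(CPM + 1) values. The added 1 compresses the fall of a gene as low as ID4, so likeness on this scale does not mean an equal fold. CTXN1 was at 48.5 and 45.9 CPM in WT and at 5.22 and 5.34 CPM in HSF1-pLVX replicates 1 and 2. TCEAL8 was at 24.8 and 24.6 CPM against 2.55 and 2.42 CPM. SHROOM4 had 130 and 112 counts against 2 and 0.

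**Figure D5:**
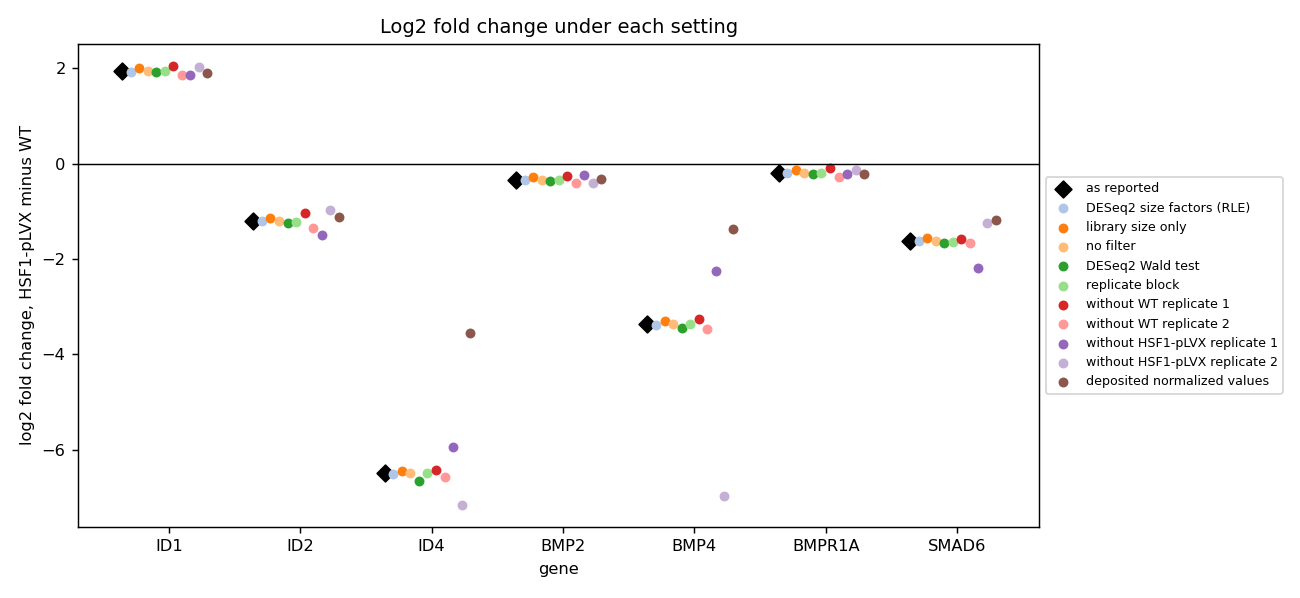
Log2 fold change (HSF1-pLVX minus WT) of the 7 tested genes as reported (black diamonds) and under 10 alternative settings (coloured points). ID1 stays between 1.85 and 2.05 and no gene crosses 0, while BMP4 moves from -3.37 to -1.38 in the deposited normalized values and to -6.97 without HSF1-pLVX replicate 2.

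In the authors' normalized table, whose log2-like values shrink differences between low counts, ID1 was at 10.5 and 10.3 in WT and at 12.4 and 12.2 in HSF1-pLVX replicates 1 and 2. The study's rule, which asks for a ratio over 2 or under 0.5 in each replicate pair, was met upwards by ID1 and downwards by ID2 and ID4. SMAD6 missed it in replicate 1 with a ratio of 0.515, and BMP4 in replicate 2 with 0.538.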

How the data were processed

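RNA-seq of 2 WT and 2 HSF1-pLVX libraries of MCF10A cells was analysed, grouped by the sample titles. Raw counts per gene were deposited by the authors, who aligned paired-end reads to hg38 with HISAT2 2.0.5, processed them with SAMtools 1.13 and counted them with featureCounts 1.6.5 on GENCODE release 26. Strand and multi-mapping settings are not given in the sources used here. The authors also deposited log2-like values normalized with DESeq2 1.32.0. Transforming the counts anew (variance stabilization, blind to group) gave those of the 10 genes and HSF1 to within 5.8e-05. Symbols came from GENCODE release 44 and promoter sequences from RefSeq (GRCh38.p14).

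Counts were tested as deposited with edgeR 4.0.16 in R 4.3.3 (TMM, filterByExpr defaults, quasi-likelihood test, no block) over 15830 genes, with Benjamini-Hochberg adjustment and a threshold of 0.05. Standard errors were taken from the F statistic. The common biological coefficient of variation was 0.0738. A chi-square per degree of freedom of 6.623 for WT and 8.041 for HSF1-pLVX showed more than sampling noise between replicates. The study calls them biological replicates. On counts simulated for the 15830 genes of this comparison, with 200 changed in each of 3 draws, 76.2% of changes of 1 and 97.4% of changes of 2 on the log2 scale were recovered and 4.13% of calls were false. In the data 65.9% of tested genes were called, far more than were changed in the simulation, so these rates may not hold for the data. Intervals and floors (3 counts) cover counting error only.

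The genes, the pathway list of 63, the markers and the tests were chosen with earlier results of these data known. Named genes were the 10, HSF1, the 3 genes most like ID4 in profile (ID4 being the most changed of the 10 with at least 50 counts in both libraries of the higher group), and listed genes called over 2-fold, the same way in both replicate numbers, with at least 50 counts in both libraries of the higher group. Alternatives were DESeq2 1.42.0 (Wald test), other normalizations, no filter, the replicate block, each library left out, a 2-fold threshold and the study's rule.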

Additional observations from a re-analysis of the deposited data

How the results depend on the processing

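ID1, ID2, ID4, BMP4 and SMAD6 kept their direction and call under every alternative with a test. The only change of a call among the 7 tested genes was BMPR1A without WT replicate 2. The number of the 10 genes called lower was 2 under the study's rule on the deposited normalized values. The log2-like difference there was -3.56 for ID4, -1.38 for BMP4 and 1.90 for ID1. Of the pathway list, 8 genes were higher with DESeq2's Wald test and 7 when a change over 2-fold was added, against 13, and over all genes 2358 were over 2-fold higher and 2218 lower, against 5175 and 5253. The stricter threshold is the cause of the latter, and for the Wald test the cause was not tested. The replicate number was not used for pairing, because neither labels nor methods say that it marks a shared culture or day. Samples of the same replicate number did not deviate together (r = -0.0288 over 15830 genes and -0.116 over the 9672 above 8 CPM). With the replicate block 5138 genes were higher and 5171 lower, and of the 10 genes 1 and 4. With crossed numbers, added after seeing the data, 5429 and 5487 genes were called. Leaving out 1 library at a time, the genes called higher numbered between 3783 and 4923 and those called lower between 3846 and 4962, the lowest without HSF1-pLVX replicate 2. Counts of 3 or fewer in a library limit ID3, BMP7 and GREM1 in every group, and ID4 and BMP4 in HSF1-pLVX cells.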
